A study of Citrus junos with 4 samples.

Results

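The genes described here are those for sucrose metabolism and sugar transport in leaves of Ziyang xiangcheng (Citrus junos), a citrus rootstock. They were chosen by words in the gene descriptions: names of the enzymes that make or cleave sucrose, of the kinases that act on its hexoses, and of sugar carriers. Of the 29406 genes in the table, 153 matched, after 22 further genes whose description also held the word pectinesterase had been left out. RNA-seq was done on untreated mature leaves in 4 libraries, 2 from the diploid (2×) and 2 from the doubled diploid (4×), named 2×-1, 2×-2, 4×-1 and 4×-2. Leaves came from near the top of the plant and were 3 to 5 months old, and each library was a pool from 4 plants, with other plants in the second pool of a ploidy, so the pools and not the plants are the replicates. The 4× plants came from genome doubling of the same 2× genotype.

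Sucrose is the main form in which carbon leaves a citrus leaf. It is made in the cytosol by sucrose-phosphate synthase and sucrose-phosphatase, and it is cleaved either by sucrose synthase, which yields UDP-glucose and fructose, or by invertases, which yield glucose and fructose. Hexokinase and fructokinase return the free hexoses to metabolism. Sucrose transporters load the phloem by proton symport, SWEET proteins let sugars pass membranes in either direction, and other carriers move hexoses, inositol and polyols across the plasma membrane, the tonoplast or the plastid envelope.

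The values are RPKM, which scale uniquely mapped reads by gene length and library size, so levels can be compared between genes but carry no information on the RNA content of a cell. In leaf tissue, fewer cells of a type and less RNA per cell cannot be told apart. The recovered library totals ranged from 8874306 to 9545185 reads, at which 1 read on 1 kb was worth 0.105 to 0.113 RPKM. Among lists of marker genes chosen by description words, the 17 mesophyll genes, none of them at 0, summed to 15110 and 18490 RPKM in 2× and to 17810 and 18050 RPKM in 4×. Of the 151 phloem genes, 19 were at 0 in every library and 47 had a mean of at least 1 RPKM. The 151 summed to 1132 and 1042 RPKM in 2× and to 1043 and 1021 RPKM in 4×. The 63 xylem genes summed to 5578 and 5231 RPKM in 2× and to 5594 and 5732 RPKM in 4×. Over the libraries, the guard cell, dividing cell and root lists summed to 13.1 to 16.1, 630 to 644 and 34.2 to 37.3 RPKM. The 12 seed genes summed to 11.5 to 15.4 RPKM.

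Of the 153 genes, 143 had reads in at least 1 library and 10 were listed at 0 in all 4. A mean of at least 1 RPKM was reached by 108, and these were tested. The other 35 had a mean of at most 0.962 RPKM. The tested genes comprised 31 enzymes, 55 transporters, 2 proteins with an invertase inhibitor domain, and 20 genes that matched the words but whose leading name is that of another function. Phosphofructokinases of glycolysis (9 tested) and nucleotide-sugar transporters (6 tested) made up most of the last group, and they are kept apart below. Together the 153 genes held 0.514% and 0.468% of the summed RPKM in 2× and 0.508% and 0.538% in 4×. The summed level was lowest in 2×-2, with 2963 RPKM against 3225 to 3316 RPKM in the other libraries. Between the 2× replicates, 73 of the 108 tested genes (67.6%) had a higher value in 2×-1 than in 2×-2, whereas 56.6% of all tested genes did.

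Between 4× and 2×, only 1 of the 108 tested sugar genes passed the test, limma on log2(RPKM + 0.5) with an adjusted p below 0.05. This was a sucrose synthase that was lower in 4×. That is 0.926% of the sugar genes, beside 1.39% of all 16157 tested genes (0.99% lower and 0.396% higher in 4×). At an unadjusted p below 0.05 there were 17 sugar genes, or 15.7%, beside 13.3% of all genes. With limma's voom on the recovered reads 4 sugar genes passed, or 3.7%, beside 2.5% of all genes: the sucrose synthase, Cs3g14550 and Cs7g09050 lower and Cs2g08110 higher in 4×. The 4× libraries lay both above or both below the 2× libraries in 43 sugar genes, 39.8% of those tested, beside 43.7% of all genes; 19 lay above and 24 below. The median log2 difference was 0.02 in the sugar genes and −0.03 in all tested genes. The sugar median had no stable sign: it was 0.06 without 2×-1 and 0.04 without 4×-1, but −0.05 without 2×-2 and −0.03 without 4×-2. Log2 differences of single genes ranged from −1.54 to 0.75, and 9 exceeded 0.5 in size. With 1 library left out, the sugar genes that passed were not the same set each time, and 1 group then held a lone library. Without 2×-1 the sucrose synthase was not among them, at a log2 difference of −0.65. The median gene had a 95% interval of 0.36 log2 units to either side, about 1.28-fold, which limits what 2 libraries a group can show. A single value compared by exact permutation of 2 libraries against 2 cannot reach a two-sided p below 0.33.

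**Figure D1:**
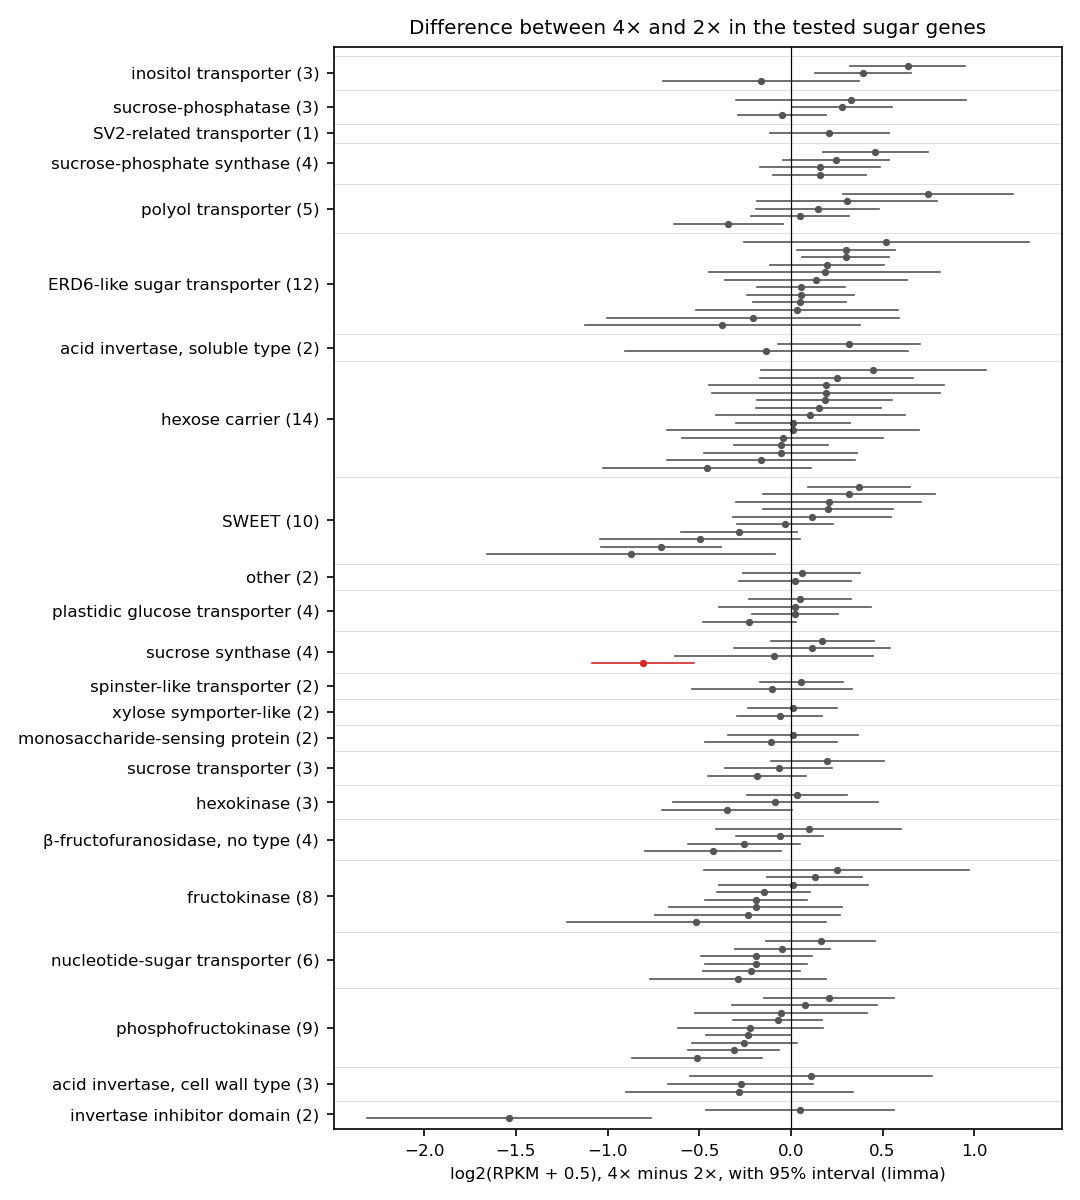
Log2(RPKM + 0.5) difference of 4× minus 2× (horizontal axis) for the 108 tested genes, with the 95% interval from limma as a line, grouped by role on the vertical axis with the number of genes in parentheses. The sucrose synthase Cs4g06850, in red at −0.81, is the only gene with an adjusted p below 0.05, and the widest interval at the lower left belongs to Cs7g09050, which has an invertase inhibitor domain.

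In the pathway of sucrose synthesis, all 4 genes for sucrose-phosphate synthase, the enzyme that forms sucrose 6-phosphate, had positive differences, and none passed the test. The largest was that of Cs5g19060, described as sucrose-phosphate synthase 4, with 31.6 and 28.1 RPKM in 2× and 37.3 and 45.5 RPKM in 4×. Its 4× libraries lay above its 2× libraries, and the log2 difference was 0.46 (SE 0.13) with a limma adjusted p of 0.132. Cs4g05380, the gene of the class with the highest mean, had 33.8 and 31.8 RPKM in 2× and 34.8 and 43.8 RPKM in 4×, again without overlap, at a log2 difference of 0.25 with a 95% interval from −0.04 to 0.54. The remaining 2 genes, orange1.1t03668 and Cs7g05690, had log2 differences of 0.16 each. Summed over the 4 genes, the level was 99.1 and 97.3 RPKM in 2× and 110 and 131 RPKM in 4×, with 4×-2 the farther of the 4× libraries from 2×.

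Sucrose-phosphatase, which removes the phosphate from sucrose 6-phosphate, had 3 genes, all tested. The most abundant, Cs6g13350, had 94.1 and 106 RPKM in 2× and 96.2 and 97.2 RPKM in 4×. Its groups overlapped, and its log2 difference of −0.05 had an interval from −0.29 to 0.19. The neighbouring genes Cs7g23840 and Cs7g23850 followed different courses. Cs7g23840 had 20.8 and 24.8 RPKM in 2× and 28.4 and 26.9 RPKM in 4×, with a log2 difference of 0.28 and a limma adjusted p of 0.367. Cs7g23850, picked out after its values were seen, had 11.4 and 10.5 RPKM in 2× but 9.35 and 20.4 RPKM in 4×. Its 4× libraries thus stood on both sides of the 2× libraries, on 17, 16, 14 and 29 recovered reads. The log2 difference was 0.33 with a limma adjusted p of 0.690, and without 4×-1 it was 0.87.

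The only call was in sucrose synthase, the enzyme that cleaves sucrose reversibly. The study had listed this gene as differing on the same samples, so its direction is not independent evidence. Cs4g06850 had 110 and 87.7 RPKM in 2× (mean 98.7 ± 15.7, SD, n = 2) and 55.3 and 56.4 RPKM in 4× (55.9 ± 0.82, SD, n = 2). The 4× libraries were almost equal and both lay well below the lower 2× library, and the level in 2× was 1.77 times that in 4×. The log2 difference was −0.81 (SE 0.12) with an adjusted p of 0.018 by limma, and the recovered reads were 5878 in 2× and 3217 in 4×. Without 2×-1 the log2 difference was −0.65 and the call was lost, with an adjusted p of 0.0568, whereas leaving out each of the other libraries gave 0.0186 to 0.0335, and with all detected genes tested regardless of level the adjusted p was 0.224. Among the marker lists, summed phloem markers were highest and summed mesophyll markers lowest in 2×-1, where this gene was highest. Summed xylem markers were lowest in 2×-2 and highest in 4×-2. The phloem sums in 2×-2 and 4×-1 were 1042 and 1043 RPKM, where this gene had 87.7 and 55.3 RPKM. The part of cell types in the result was not tested.

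The second abundant sucrose synthase, Cs5g33470, had 78.6 and 62.9 RPKM in 2× and 76.9 and 81.7 RPKM in 4×. Its groups overlapped, and the log2 difference of 0.17 had an interval from −0.11 to 0.45. The order of the pair was thus reversed between the ploidies. The ratio of Cs4g06850 to Cs5g33470, which does not depend on how libraries are scaled and was formed after the values were seen, was 1.40 and 1.39 in 2× and 0.72 and 0.69 in 4×. The 2× libraries, which differed in the level of each gene, were nearly identical in this ratio. Cs4g06850 made up 56.2% and 55.7% of the summed sucrose synthase level in 2× and 39.8% and 38.7% in 4×. Of the other 4 sucrose synthase genes, Cs5g16700 and Cs6g15930 reached means of 1 RPKM or more, with 2.29 to 4.67 RPKM in all libraries and overlapping groups, and the remaining 2 were not tested. The summed level of the sucrose-phosphate synthases was 0.506 and 0.618 of that of the sucrose synthases in 2×, and 0.794 and 0.895 in 4×. This ratio was also formed after the values were seen. Its denominator includes Cs4g06850, so it is not separate from the call of that gene.

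**Figure D2:**
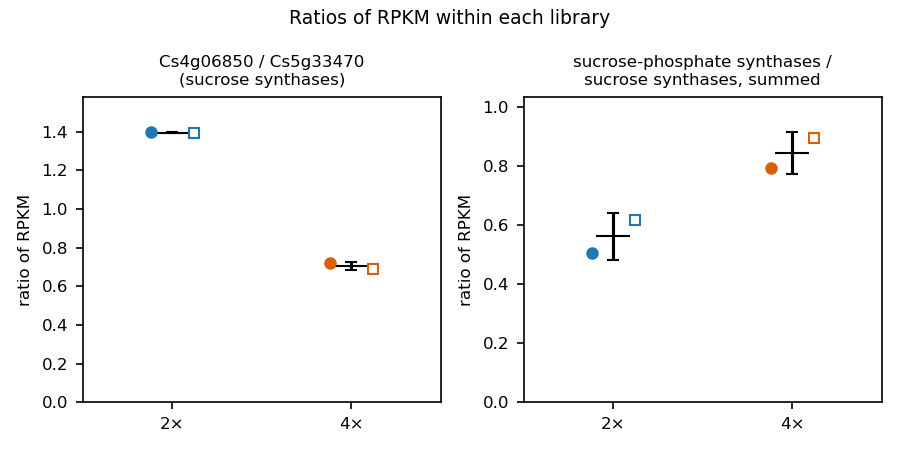
Ratio of RPKM within each library (vertical axis, from 0) for the pair of abundant sucrose synthases and for the summed sucrose-phosphate synthases over the summed sucrose synthases. The second denominator includes Cs4g06850, and both ratios were formed after the values were seen. Filled circles are replicate 1 and open squares replicate 2, and black bars give the mean with its SD over 2 libraries; the first ratio is 1.40 and 1.39 in 2× and 0.72 and 0.69 in 4×.

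None of the invertases, which split sucrose irreversibly, passed the test. Among the 5 genes described as beta-fructofuranosidase without a type, orange1.1t01536 was the most abundant, with 61.9 and 66.7 RPKM in 2× and 63.9 and 59.2 RPKM in 4×. Its groups overlapped at a log2 difference of −0.06, with an interval from −0.30 to 0.17. Of the 4 tested in this class, both 4× libraries lay below both 2× libraries in 2 and above in none. Over all tested genes 26.2% lay below and 17.5% above. One of the 2 was Cs9g01760, picked out after its values were seen, with 8.80 and 7.56 RPKM in 2× and 5.42 and 6.51 RPKM in 4×. Its log2 difference was −0.43 with a limma adjusted p of 0.295. The soluble (vacuolar) acid invertase Cs5g09220 had 9.07 and 7.28 RPKM in 2× and 9.03 and 11.6 RPKM in 4×, with overlapping groups. The cell wall invertase Cs1g18220 had 6.09 and 6.16 RPKM in 2× and 5.63 and 4.40 RPKM in 4×. Its 4× libraries were both lower, by a log2 difference of −0.27 with an interval from −0.67 to 0.12. All 6 cell wall invertase genes together summed to 10.6 and 9.20 RPKM in 2× and to 9.15 and 7.82 RPKM in 4×, below the single most abundant beta-fructofuranosidase in every library.

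Proteins with the invertase and pectin methylesterase inhibitor domain bind and inactivate their target enzyme, and the sequence family alone does not tell which. Of 7 such genes, 3 were at 0 and 2 were tested. Cs7g09050 had the largest difference of the tested sugar genes, with 4.48 and 3.11 RPKM in 2× and 1.59 and 0.523 RPKM in 4×. These values rest on 45, 32, 16 and 5 recovered reads, and the 4× libraries differed from each other by 1.03 log2 units. The log2 difference was −1.54 (SE 0.35) with a limma adjusted p of 0.0704, so the gene did not pass. By voom the adjusted p was 0.0329. With 1 library left out at a time the limma difference ranged from −2.05 to −1.02. Cs9g02350 had 3.85 and 5.61 RPKM in 2× and 4.07 and 5.74 RPKM in 4×, so that the replicates of each group differed while the group means, 4.73 and 4.90 RPKM, were close.

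None of the hexose kinases passed the test. The most abundant hexokinase, Cs4g15520, which phosphorylates glucose, had 30.4 and 27.5 RPKM in 2× and 27.4 and 32.0 RPKM in 4×, and its log2 difference of 0.03 had an interval from −0.24 to 0.30. The most abundant fructokinase, Cs6g17600, had 26.2 and 29.3 RPKM in 2× and 28.9 and 31.9 RPKM in 4×. Its groups overlapped as well, at 0.13 with an interval from −0.13 to 0.39. Of the 8 tested fructokinases, 3 had both 4× libraries below both 2× libraries and none had them above, beside 26.2% and 17.5% of all tested genes. The largest of these differences, −0.52 in Cs5g18560, rested on 46 reads over the 4 libraries, with 1.60 and 1.27 RPKM in 2× and 0.597 and 1.15 RPKM in 4×.

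**Figure D3:**
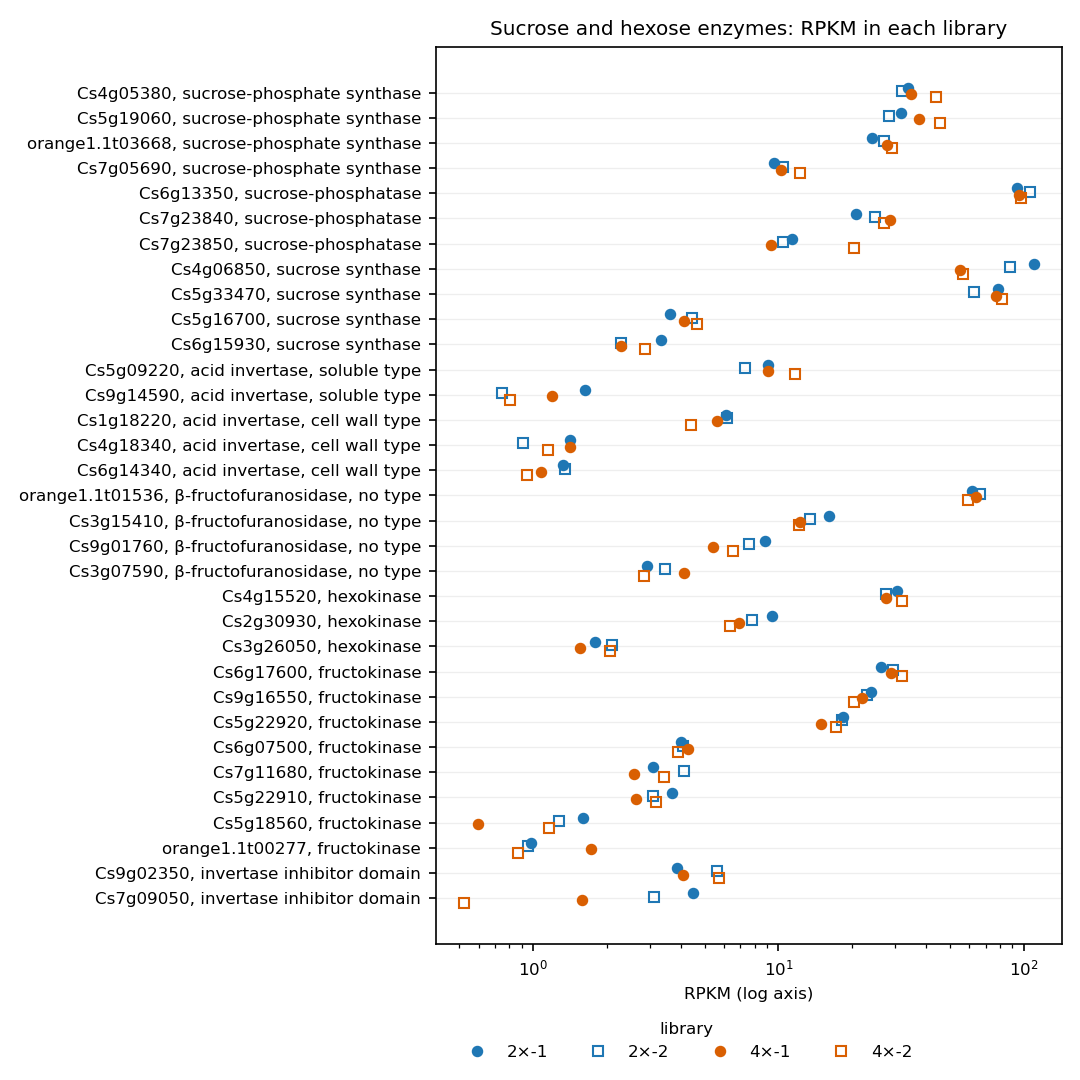
RPKM in each library (horizontal log axis) of the tested sucrose and hexose enzymes and invertase inhibitor domain proteins, ordered by class and then by mean. Blue marks are 2× and orange marks 4×, with filled circles for replicate 1 and open squares for replicate 2; the orange marks of Cs4g06850, at 55.3 and 56.4 RPKM, lie apart from its blue marks at 110 and 87.7 RPKM.

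Of the 55 tested transporters, 36 had positive and 19 negative differences, and none passed the test. Their summed level was 1723 and 1580 RPKM in 2× and 1802 and 1828 RPKM in 4×. The 4× libraries lay above the 2× libraries in 12 transporters and below in 6, that is, 21.8% and 10.9%, whereas over all tested genes 17.5% lay above and 26.2% below. In this sum too, 2×-2 was the lowest library.

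Sucrose transporters were dominated by Cs3g22560, whose description names sucrose transport protein SUC2, which loads sucrose into the phloem in Arabidopsis. It held 85.5% of the summed level of the 3 genes, with 268 and 216 RPKM in 2× and 262 and 292 RPKM in 4×. The groups overlapped, and the log2 difference of 0.20 had an interval from −0.11 to 0.51. Cs3g16640 had 33.4 and 28.7 RPKM in 2× and 28.3 and 26.2 RPKM in 4×, and Cs7g04100 had 15.9 and 14.4 RPKM in 2× and 13.5 and 15.4 RPKM in 4×. Neither of them passed the test.

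Among the 20 SWEET genes, 10 were tested, 2 were at 0, and the groups separated upwards in 2 and downwards in 2, beside 17.5% and 26.2% of all tested genes. The most abundant, orange1.1t02627, described as bidirectional sugar transporter SWEET12, had 121 and 102 RPKM in 2× and 105 and 113 RPKM in 4×. In Arabidopsis SWEET12 exports sucrose from phloem parenchyma, and here its log2 difference was −0.03 with an interval from −0.29 to 0.23. Cs3g14550, described as SWEET16, a sugar carrier of the tonoplast in Arabidopsis, had 15.5 and 15.6 RPKM in 2× and 8.29 and 10.5 RPKM in 4×. Its 2× libraries were nearly the same and both exceeded the 4× libraries, with a log2 difference of −0.71 (SE 0.15). Its limma adjusted p of 0.0535 missed the threshold, and voom gave 0.0220. With 1 library left out at a time the log2 difference ranged from −0.87 to −0.54. Cs5g01880, with 1.23 and 2.31 RPKM in 2× and 0.471 and 0.994 RPKM in 4×, had the most negative difference of the class, −0.87, but on 53 reads in all and with an adjusted p of 0.315 by limma. Cs9g04180, picked out after its values were seen, had 12.5 and 23.9 RPKM in 2× and 12.7 and 11.5 RPKM in 4×. Thus 2×-2 alone stood high. By the main limma fit the log2 difference was −0.50, with an adjusted p of 0.428, and without 2×-1 it was −0.95.

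Among the transporter classes the inositol transporters had the largest ratio of summed levels between 4× and 2×, 1.36, although none of them passed the test. Their sum was 323 and 280 RPKM in 2× and 412 and 408 RPKM in 4×. The gene orange1.1t03682, described as inositol transporter 1, a tonoplast exporter in Arabidopsis, was the most abundant, with 240 and 218 RPKM in 2× and 301 and 301 RPKM in 4×. Its groups did not overlap, and the log2 difference was 0.39 (SE 0.12) with a limma adjusted p of 0.157. Cs2g08110, described as inositol transporter 2, had 79.0 and 58.6 RPKM in 2× and 107 and 105 RPKM in 4×. The 4× libraries were again nearly equal and both above the higher 2× library. The log2 difference was 0.64 (SE 0.14) with a limma adjusted p of 0.0659. It ranged from 0.42 to 0.85 with 1 library left out at a time. Cs7g20530 had 2.45 to 3.92 RPKM and overlapping groups.

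Polyol transporters carry sugar alcohols in symport with protons, and 4 of the 5 tested had positive differences. The gene orange1.1t05715 had 14.6 and 9.05 RPKM in 2× and 22.0 and 17.6 RPKM in 4×. This was the largest positive difference among the 108 tested sugar genes, 0.75 on the log2 scale (SE 0.21), with a limma adjusted p of 0.132. The values rest on 49, 31, 74 and 56 recovered reads. With 1 library left out at a time the difference ranged from 0.41 to 1.08. The more abundant neighbours Cs8g06820 and Cs8g06810 had overlapping groups, at 49.5 to 59.0 RPKM and 35.2 to 49.4 RPKM.

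**Figure D4:**
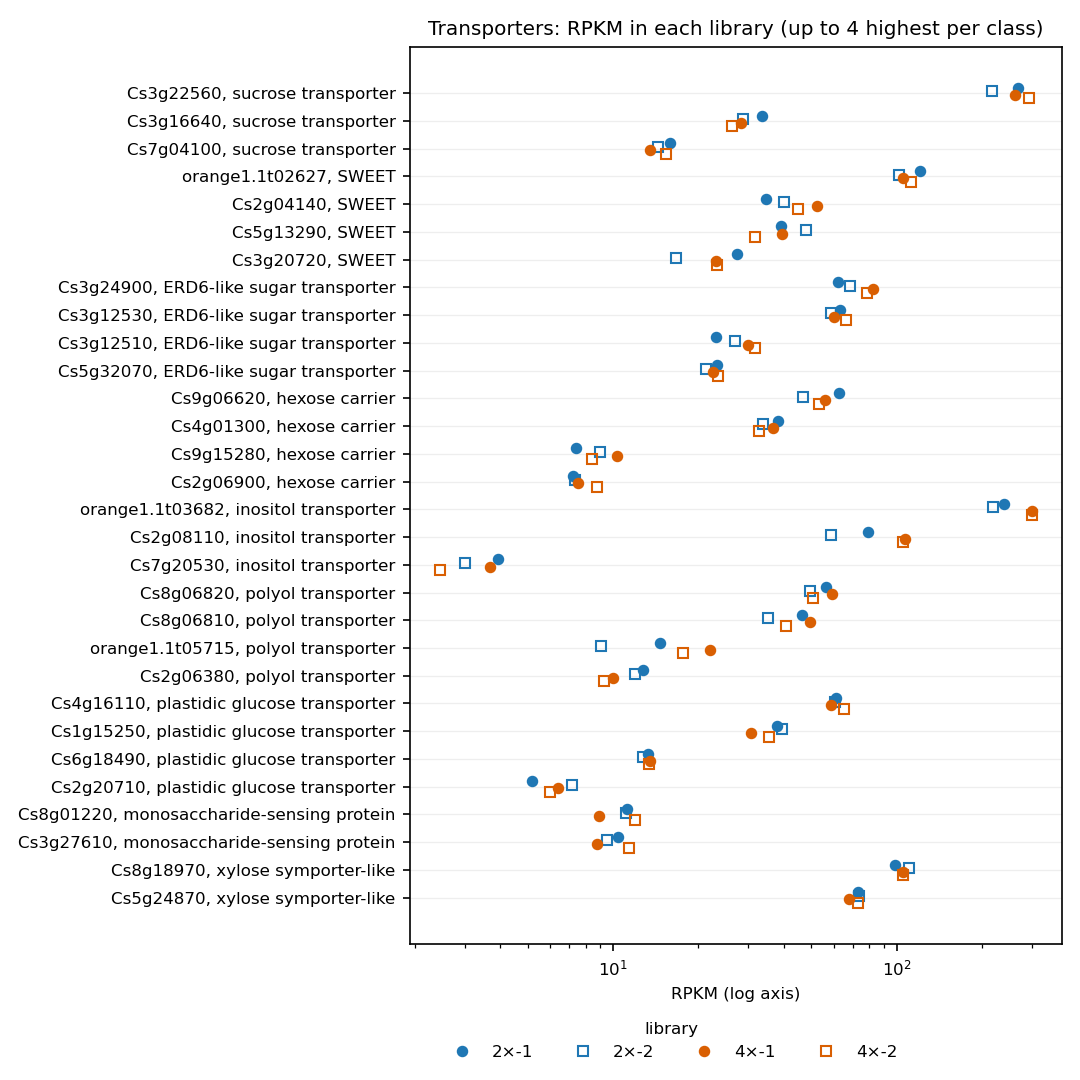
RPKM in each library (horizontal log axis) of up to 4 tested genes with the highest mean in each transporter class. Blue marks are 2× and orange marks 4×, with filled circles for replicate 1 and open squares for replicate 2; the inositol transporters orange1.1t03682 and Cs2g08110 have both orange marks to the right of both blue marks, whereas the marks of the sucrose transporter Cs3g22560 overlap.

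Hexose carriers of the sugar transport protein family, which take up hexoses from the cell wall space, were numerous but mostly at low levels. Of 26 genes, 14 were tested, and the groups overlapped in 11 of them. They separated upwards in 2 and downwards in 1, beside 17.5% and 26.2% of all tested genes. Cs9g06620, described as sugar transport protein 13, had 62.5 and 46.8 RPKM in 2× and 55.9 and 53.2 RPKM in 4×. Its log2 difference was 0.01 with an interval from −0.30 to 0.32. A run of 12 genes described as hexose carrier protein HEX6 lies between Cs9g15160 and Cs9g15300 in the gene numbering. Only 8 of the run were tested, and the whole run summed to 23.9 to 29.1 RPKM. Where copies are near-identical, reads that map to more than 1 place are left out of values from uniquely mapped reads. Both single genes and the sum could then be understated, and the likeness of these copies was not examined.

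The ERD6-like transporters, which in Arabidopsis include exporters of glucose from the vacuole, had 12 tested genes, of which 10 had positive differences and 4 separated upwards without passing the test, beside 17.5% of all tested genes that separated upwards. Cs3g24900 was the most abundant, with 62.2 and 68.6 RPKM in 2× and 82.2 and 78.7 RPKM in 4×. Its log2 difference was 0.30 with a limma adjusted p of 0.245. Cs5g34890 had a larger difference of 0.52, on 28 reads in all. In the run of 6 such genes from Cs3g12490 to Cs3g12540, the neighbours Cs3g12490 and Cs3g12500, picked out after their values were seen, varied together between the 4× libraries. Cs3g12490 had 6.37 and 4.75 RPKM in 2× and 2.80 and 7.72 RPKM in 4×. Cs3g12500 had 12.8 and 10.7 RPKM in 2× and 5.48 and 14.4 RPKM in 4×. In both genes 4×-1 was the lowest library and 4×-2 the highest, and their ratio stayed between 1.87 and 2.26 in the 4 libraries. The values of Cs3g12500 rest on 14, 12, 6 and 15 recovered reads. Its log2 difference was −0.37 with a limma adjusted p of 0.714, and without 4×-2 it was −1.03.

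Carriers of the plastid envelope and the remaining classes had small differences. The probable plastidic glucose transporter Cs4g16110, of a family that exports glucose from starch breakdown out of the chloroplast, had 61.1 and 60.6 RPKM in 2× and 58.7 and 64.9 RPKM in 4×. The interval of its difference ran from −0.21 to 0.26. The xylose-proton symporter-like gene Cs8g18970 had 98.9 to 111 RPKM in the 4 libraries and an interval from −0.23 to 0.25. The monosaccharide-sensing protein Cs8g01220, of a family that imports sugars into the vacuole in Arabidopsis, had a log2 difference of −0.11 with an interval from −0.47 to 0.25. All 3 had overlapping groups.

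Among genes that matched the words but whose leading name is that of another function, the highest level of any member belonged to Cs4g04920, described as related to the synaptic vesicle protein SV2. It had 455 and 367 RPKM in 2× and 464 and 482 RPKM in 4×, with a log2 difference of 0.21 and an interval from −0.11 to 0.53. Phosphofructokinases, which commit hexose phosphates to glycolysis, had mostly negative differences, 7 of the 9 tested, with 5 genes whose 4× libraries both lay below the 2× libraries and none above, where 26.2% and 17.5% of all tested genes did. Their summed level was 219 and 212 RPKM in 2× and 186 and 189 RPKM in 4×. Cs4g13070, the most abundant, had 94.3 and 89.5 RPKM in 2× and 79.9 and 76.3 RPKM in 4×, with a log2 difference of −0.23 and a limma adjusted p of 0.368. Cs1g20200 had 8.36 and 7.30 RPKM in 2× and 5.19 and 5.48 RPKM in 4×, with a log2 difference of −0.51 and a limma adjusted p of 0.175. The nucleotide-sugar transporter Cs7g05550 and the spinster-like transporter Cs1g20960 had 21.4 to 24.0 RPKM and 51.3 to 54.4 RPKM.

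A list of related genes was chosen by description words. It took in hexose phosphate enzymes, UDP-glucose pyrophosphorylase, triose phosphate/phosphate translocators (with Cs2g07720), raffinose, galactinol and trehalose enzymes, and SNF1-related kinases. The list held 85 genes, of which 70 were tested and 4 passed the limma test, 1 higher and 3 lower in 4×. That is 5.71%, beside 1.39% of all tested genes. The list was chosen with earlier results of these data known, so the higher share is not a test of it. Cs2g07720, described as glucose-6-phosphate/phosphate translocator 2, which brings glucose 6-phosphate into plastids, fell from 1001 and 890 RPKM in 2× to 410 and 408 RPKM in 4×, at −1.21 (adjusted p 0.0053). Raffinose synthase makes raffinose from sucrose and galactinol. Of its 6 tested genes, 4 had negative and 2 positive differences. The most abundant, Cs9g12460, had 102 and 115 RPKM in 2× and 91.0 and 102 RPKM in 4×, with overlapping groups. In orange1.1t03297 both 4× libraries lay above, at a log2 difference of 0.65 with a limma adjusted p of 0.149. Cs4g05490 and Cs4g07840 passed and were lower in 4×. They are described as a galactosyltransferase of this kind and as a putative raffinose synthase or seed imbibition protein. Cs4g05490 had 44.0 and 36.8 RPKM in 2× and 18.7 and 13.2 RPKM in 4×, and Cs4g07840 had 7.38 and 7.97 RPKM in 2× and 2.59 and 1.79 RPKM in 4×. Their log2 differences were −1.33 and −1.62, with a limma adjusted p of 0.00704 each; the study had selected these genes on the same samples, so their direction is not independent evidence. Galactinol synthase forms galactinol from UDP-galactose and inositol, and the galactinol synthase-like Cs9g01710 had 9.47 and 7.02 RPKM in 2× and 20.0 and 17.0 RPKM in 4×, a rise of 1.13 on the log2 scale with a limma adjusted p of 0.0141. Without 2×-2 the calls of Cs4g07840 and Cs9g01710 were lost, with adjusted p of 0.0683 and 0.0722 by limma, and with no filter on low values all 4 were lost. None of the 17 tested SNF1-related kinase genes, 12 trehalose genes, 10 phosphoglucomutases or 6 fructose-1,6-bisphosphatases passed the test, and 1, 2, 0 and 3 of them had an unadjusted p below 0.05, beside 13.3% of all tested genes.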

How the data were processed

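The authors removed single-end reads with adapters, undetermined bases or low quality, aligned the rest to the C. sinensis genome and deposited RPKM per gene, that is, uniquely mapped reads scaled by gene length and library reads. The submitters' processing notes name TopHat2 2.0.9, Bowtie2 2.0.6, HTSeq 0.5.4p3 and DESeq 1.10.1; the annotation version and strand use were not given in the sources used here. Reads of C. junos were mapped to another species, so diverged or near-identical genes are less certain.

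RPKM values were whole multiples of 1 read, and whole reads were recovered for 24073 of 24073 detected genes (100%, tolerance 0.001 reads for small counts), up to a factor shared by a gene's length and counts. The 16157 genes averaging 1 RPKM or more were tested as log2(RPKM + 0.5) with limma 3.58.1 in R 4.3.3 (trend, two-sided, Benjamini-Hochberg over all tested genes, threshold 0.05). Fold changes on this scale understate those of low genes. The p-values rest on the spread between 2 pools a group, and in the main fit limma drew each gene's variance towards the trend over all tested genes. The main fit and voom were tested on simulated data with a set spread. The main fit called 87.2% of genes changed 2.5-fold, 93.5% of those changed 4-fold and 9 unchanged genes. Voom called 91.9%, 93.5% and 4. Smaller changes were not simulated, and only 1 of the 108 tested sugar genes differed by more than 1 log2 unit. Alternatives were pseudocounts of 0.1 and 1, no filter, a mean of at least 3 RPKM, median-of-ratios scaling, robust eBayes, voom, a replicate block and each library left out.

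Members and lists were chosen with earlier results of these data known. Genes named were each member that passed the test, the tested member with the highest mean in each class, and the 10 with the largest differences whose groups did not overlap; members named beyond these were added after their values were seen. Roles were read from the descriptions, which list several names per gene. No sequences were used.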

Additional observations from a re-analysis of the deposited data

How the results depend on the processing

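The count of sugar genes that passed (1 of 108) was the same with pseudocounts of 0.1 and 1 and with median-of-ratios scaling. It was 2 with a mean of at least 3 RPKM, 2 with robust eBayes, 4 with voom and 0 without a filter, where limma gave 16 sugar genes an unadjusted p below 0.05 and 0 of all genes passed. Without 1 library it ranged from 1 to 3. Over all genes the count of 224 became 404 with voom and ranged from 77 (without 2×-2) to 264 (without 4×-1), with 144 without 2×-1 and 170 without 4×-2. The related list had 4 calls, 0 without a filter and 2 to 4 without 1 library; Cs4g07840 and Cs9g01710 lost theirs without 2×-2. Median-of-ratios scaling moved the median of all genes from −0.03 to 0.0024, and split the calls into 69 higher and 109 lower in place of 64 and 160. Of 368 values of the 31 named genes, 16 reversed in sign, all on leaving out 1 library and in 10 genes that did not pass: the log2 difference ranged from −0.076 to 0.14 in Cs4g15520, −0.051 to 0.094 in Cs4g16110, −0.13 to 0.039 in Cs6g13350, −0.10 to 0.0089 in Cs7g05550, −0.31 to 0.10 in Cs8g01220, −0.062 to 0.16 in Cs8g06820, −0.071 to 0.089 in Cs8g18970, −0.20 to 0.30 in Cs9g02350, −0.20 to 0.22 in Cs9g06620 and −0.15 to 0.089 in orange1.1t02627. With 2 libraries a group, 1 library left out leaves a lone sample assumed to vary like the others.

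The replicate numbers were not taken to pair the libraries, since nothing in the labels ties them and there are only 2 pairs. The deviations of these pairs had a correlation of −0.05 over 16157 genes. With the replicate number as a block, 832 genes (5.15%), 7 sugar genes and 6 related genes passed. In Cs4g06850 the block raised the SE from 0.124 to 0.128, yet the limma adjusted p fell from 0.018 to 5.8e-08. That lower p did not come from a smaller spread, and the larger counts are not read as more differences.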
